A study of Macaca mulatta with 12 samples.

Results

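Estrogen alone was set against progesterone alone in the dorsal raphe of female rhesus monkeys (Macaca mulatta). The comparison took the 3 arrays titled Estrogen and the 3 arrays titled Progesterone, 6 of the 12 arrays in the series. The other 6 arrays, 3 of placebo and 3 of estrogen plus progesterone, served to estimate the spread between animals and are given beside some results. Each array held the RNA of 1 monkey, from a tissue block of the dorsal raphe.

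Animals of the estrogen group and of the progesterone group had carried Silastic capsules of crystalline steroid under the skin between the shoulder blades for 1 month before death. The labels give no dose, age, strain or genotype. OVX, taken to mean ovariectomized, stands in the placebo titles and in no title of the hormone groups. The progesterone titles read Progesterone EP with a number and their descriptions read P with a number, and these arrays were taken as progesterone alone. A block of tissue holds many cell types, so in every value given here fewer cells of a type and less RNA per cell cannot be told apart.

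Estrogen acts through the nuclear receptors ESR1 and ESR2, and progesterone through the nuclear receptor PGR, all of which are transcription factors that recruit shared coregulators to DNA. In many tissues estrogen raises PGR, so that a response to progesterone depends on earlier or joint exposure to estrogen, and the direct contrast of the single hormones holds both what estrogen does without progesterone and what progesterone does without added estrogen. The dorsal raphe holds the largest cluster of serotonin neurons that project to the forebrain. These cells make serotonin with TPH2, load it into vesicles with SLC18A2 and break it down with MAOA, and ovarian steroids are known to act on this system in macaques.

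The progesterone arrays stood apart from all others before any test. On the second principal component of the 12 arrays, which held 17.2% of the variance, they scored -14.1, -46.3 and -54.5, against 5.91, 17.7 and 11.4 on the estrogen arrays and at least 0.50 on the remaining arrays. The control probe sets at the ends of the elongation factor EF1A transcript, which reflect RNA integrity and labelling, gave a log2 signal of 3′ minus 5′ of -0.37, -0.31 and -0.33 under progesterone and of 0.74, 0.22 and 0.12 under estrogen. Both measures separated the progesterone arrays from every other array. The other control transcripts did not: the same difference ran from 0.66 to 1.23 under progesterone and from 0.52 to 0.90 under estrogen for actin, and from 0.11 to 0.59 and from 0.48 to 0.81 for GAPDH, so both overlapped. The part of these measures in the differences given here was not tested. On the first component (23.5%) it was estrogen array 1 that stood apart, at -44.9, near the first arrays of placebo and of estrogen plus progesterone. Median intensity was 92.8, 75.7 and 71.1 on the estrogen arrays and 78.9, 85.9 and 98.6 on the progesterone arrays before quantile normalization.

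Markers of the labelled tissue were present. The summed intensity of 4 markers of serotonin neurons (TPH2, FEV, SLC18A2 and GCH1) was 2363, 2655 and 3423 under estrogen and 2010, 1949 and 1485 under progesterone, so every estrogen array lay above every progesterone array. The placebo arrays ran from 2094 to 3166. Those of estrogen plus progesterone ran from 2007 to 2688, so their lowest array lay below progesterone array 1. In this linear sum the brighter SLC18A2 and FEV weigh most, with mean log2 of 10.50 and 9.61 under estrogen and 9.71 and 9.15 under progesterone. GCH1 (8.61 and 8.03) and TPH2 (7.25 and 6.47) weigh less, and in each of them the groups overlapped. SLC6A4 and DDC, the serotonin transporter and the decarboxylase of the pathway, were not named on the table used here.

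**Figure D1:**
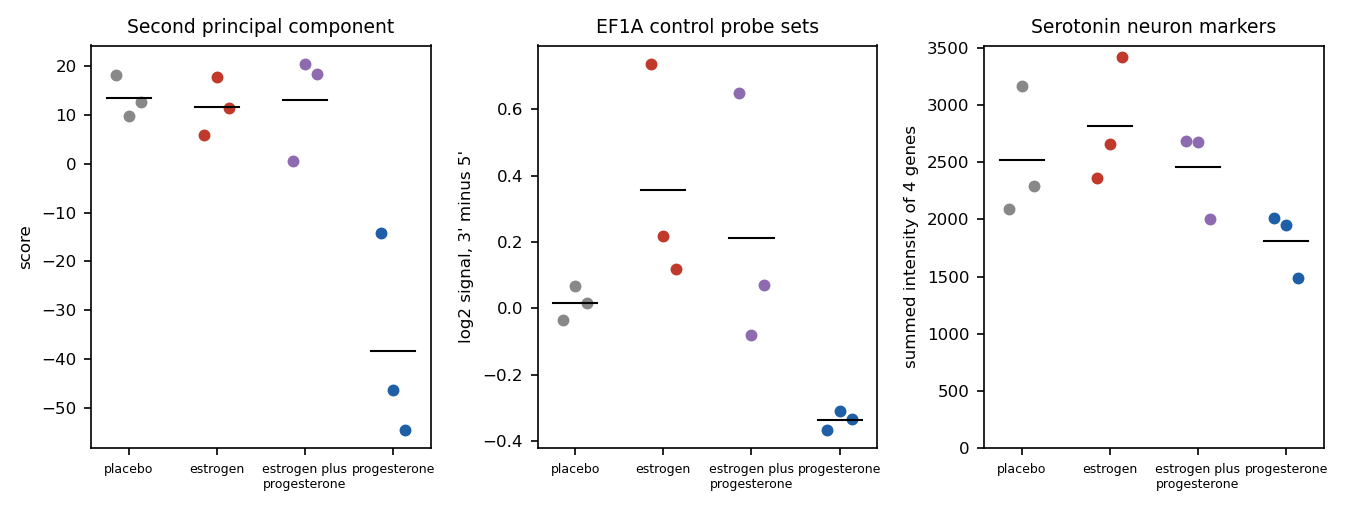
The panels plot, for each of the 12 arrays by group, the score on the second principal component, the log2 signal of the EF1A control probe sets (3′ minus 5′) and the summed linear intensity of 4 serotonin neuron markers; points are arrays and bars are group means. The 3 progesterone arrays lay below all others in the first and second panels, and below all 3 estrogen arrays in the third.

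Progesterone and estrogen arrays differed in 35 of 26383 probe sets (0.133%) at an adjusted p under 0.05 (limma, two-sided, Benjamini-Hochberg over all probe sets tested). Of these, 29 (0.11%) were lower under estrogen and 6 (0.0227%) were higher. They included 19 probe sets with a gene name, for 18 genes, of which 14 were lower under estrogen and 4 higher, and 16 probe sets without a name. The differences ran from 1.90-fold to 7.38-fold. At an unadjusted p under 0.05 there were 2598 probe sets (9.85%), of which 1381 were higher under estrogen (5.23%) and 1217 lower (4.61%). All 35 called probe sets had groups that did not overlap. Among all probe sets tested, the 3 estrogen arrays lay above the 3 progesterone arrays in 7.45% and below them in 6.65%, together 14.1%.

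The placebo and the estrogen plus progesterone arrays show which group stood apart. In all 35 probe sets the 3 progesterone arrays lay beyond all 9 other arrays, as they did in 4.55% of all probe sets tested. The 3 estrogen arrays lay beyond all 9 others in 2 of the 35, both lower under estrogen, against 0.553% of all probe sets. Over the 29 probe sets lower under estrogen, the median difference from placebo was 1.80 for progesterone and -0.0067 for estrogen on the log2 scale. Over the 6 higher under estrogen it was -0.96 for progesterone and 0.27 for estrogen.

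**Figure D2:**
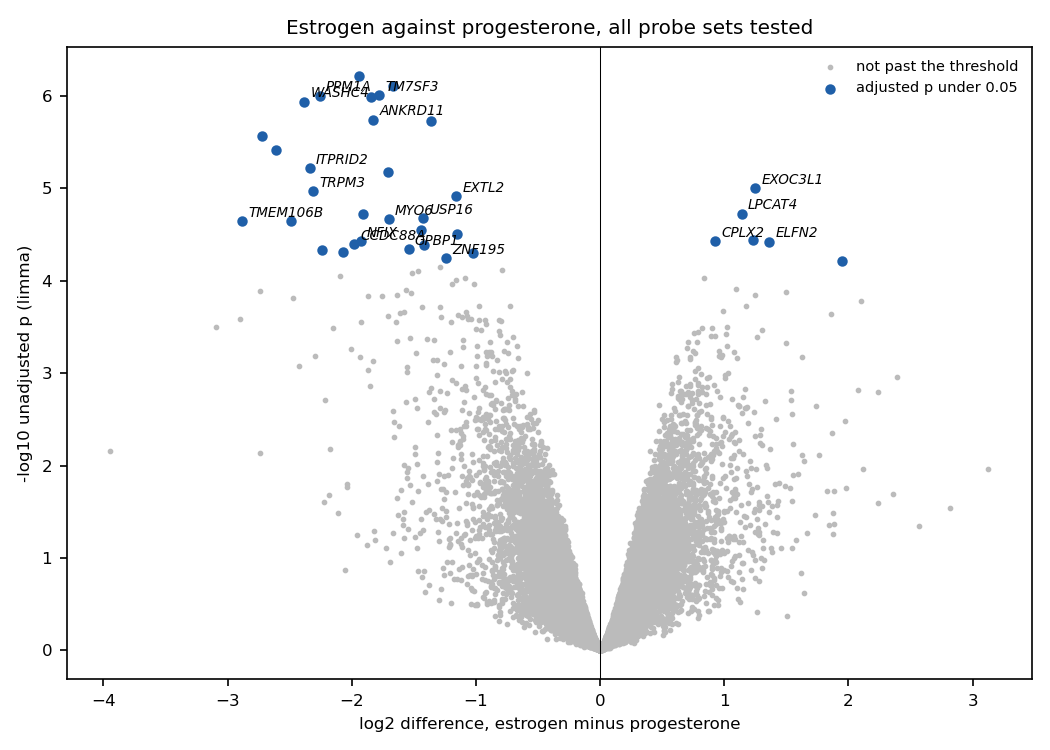
Each point is 1 of 26383 probe sets tested, with the log2 difference (estrogen minus progesterone) on the horizontal axis and -log10 of the unadjusted limma p on the vertical axis; blue points are the 35 with an adjusted p under 0.05 and those with a gene name carry it. Most called points lie on the left, higher under progesterone.

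Values per array below are log2 intensities in the order of the replicate numbers, and differences are log2, estrogen minus progesterone, with the SE of the limma fit. Among the 18 genes that passed, TMEM106B and WASHC4, of the lysosome and the endosome, had the widest differences. TMEM106B, a membrane protein of lysosomes, read 5.66, 4.74 and 4.34 under estrogen and 7.82, 8.30 and 7.28 under progesterone. The difference was -2.88 ± 0.42 (adjusted p = 0.0286), and TMEM106B was the named gene whose estrogen arrays also lay below all placebo arrays, at 7.01, 6.72 and 6.25. WASHC4, a subunit of the WASH complex that starts actin branches on endosomes, read 5.72, 5.30 and 6.12 under estrogen and 8.23, 8.17 and 7.88 under progesterone (-2.38 ± 0.26, adjusted p = 0.00504). Its groups lay more than 1 log2 unit apart, and a further probe set of WASHC4 passed as well, at -1.71 (adjusted p = 0.0144). Other probe sets of WASHC4 did not pass, at -1.34 without overlap and at -0.10 with overlapping groups. MYO6, the myosin that walks toward the minus end of actin and serves endocytosis, read 6.08, 6.55 and 6.43 under estrogen and 8.17, 8.50 and 7.49 under progesterone (-1.70 ± 0.25, adjusted p = 0.0286).

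The next genes have varied roles in signalling. TRPM3, a calcium-permeable channel opened by heat and by the neurosteroid pregnenolone sulfate, read 7.42, 6.89 and 6.11 under estrogen and 9.12, 9.0 and 9.22 under progesterone (-2.31 ± 0.31, adjusted p = 0.0201). Its progesterone arrays lay close together and its estrogen arrays spread widely. ITPRID2, which binds inositol trisphosphate receptors, read 6.95, 7.27 and 6.85 under estrogen and 9.75, 9.49 and 8.84 under progesterone (-2.34 ± 0.30, adjusted p = 0.0144). PPM1A, a metal-dependent serine/threonine phosphatase that acts on SMAD proteins, read 6.38, 7.22 and 6.69 under estrogen and 8.99, 8.95 and 9.13 under progesterone (-2.26 ± 0.24, adjusted p = 0.00504). CCDC88A, or girdin, an actin-binding protein that also activates inhibitory G proteins, read 5.88, 6.28 and 6.28 against 8.43, 8.23 and 7.71 (-1.98 ± 0.31, adjusted p = 0.0377). Like TMEM106B and WASHC4, it was tested only through its progesterone group, with a mean of 8.13. The means were 6.14 under estrogen, 6.11 under placebo and 6.16 under estrogen plus progesterone, all under the filter. No estrogen array of these genes reached a progesterone array.

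Among nuclear proteins, ANKRD11, a chromatin regulator that binds histone deacetylases and nuclear receptor coactivators, read 6.94, 6.74 and 6.48 under estrogen and 8.69, 8.52 and 8.42 under progesterone (-1.83 ± 0.21, adjusted p = 0.00621). The transcription factor NFIX, of the nuclear factor I family, read 6.36, 6.10 and 5.78 against 7.83, 8.52 and 7.68 (-1.93 ± 0.30, adjusted p = 0.0367). USP16, which removes ubiquitin from histone H2A, read 7.53, 7.23 and 7.35 against 8.63, 9.07 and 8.69 (-1.43 ± 0.21, adjusted p = 0.0286). In these genes too the groups did not overlap, and progesterone lay above every placebo array. GPBP1, an activator that binds GC-rich promoters, differed by -1.54 ± 0.24 (adjusted p = 0.0391), and the zinc finger gene ZNF195 by -1.24 ± 0.20 (adjusted p = 0.0438).

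The last genes higher under progesterone serve membranes and the cell surface. TM7SF3, a multi-pass membrane protein, had closely spaced estrogen arrays at 6.57, 6.55 and 6.68, against 8.63, 8.25 and 8.26 under progesterone (-1.78 ± 0.19, adjusted p = 0.00504). EXTL2, a glycosyltransferase of heparan sulfate synthesis, read 7.96, 7.99 and 7.70 against 9.18, 9.11 and 8.82 (-1.16 ± 0.16, adjusted p = 0.0212). Just outside the threshold was DEF6, an exchange factor for Rac GTPases, at -1.29 ± 0.21 (adjusted p = 0.0514), with estrogen arrays at 9.0, 8.36 and 8.47 below progesterone arrays at 9.90, 9.96 and 9.82.

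Of the named genes, 4 were higher under estrogen. ELFN2, a postsynaptic adhesion protein that binds metabotropic glutamate receptors, read 7.63, 7.29 and 8.02 under estrogen and 6.58, 6.01 and 6.26 under progesterone (1.36 ± 0.21, adjusted p = 0.0367). CPLX2, a complexin that binds the SNARE complex and controls vesicle fusion, read 10.84, 10.84 and 10.71 against 9.79, 9.90 and 9.93 (0.92 ± 0.14, adjusted p = 0.0367). Both genes were lower under progesterone than on every placebo array. EXOC3L1, related to a subunit of the exocyst that tethers vesicles, read 6.99, 7.25 and 7.15 against 6.07, 5.93 and 5.64 (1.25 ± 0.17, adjusted p = 0.0201). LPCAT4, an acyltransferase that remodels phospholipids, read 8.21, 8.14 and 7.88 against 7.09, 6.91 and 6.81 (1.14 ± 0.16, adjusted p = 0.0286). The gaps were smaller than in most genes of the other direction, but no arrays overlapped. Without the intensity filter none of the 4 passed (adjusted p from 0.0568 to 0.0893), and of the 14 lower genes WASHC4, PPM1A, ANKRD11 and TM7SF3 passed.

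Genes next in p on the estrogen side did not pass. The deacetylase SIRT6 read 7.69, 7.45 and 7.53 under estrogen and 5.68, 5.51 and 5.17 under progesterone (2.10 ± 0.39, adjusted p = 0.0783). Its placebo arrays were split, at 5.92, 5.62 and 7.33. KCTD6, an adaptor of cullin ubiquitin ligases, differed by 1.09 ± 0.19 (adjusted p = 0.07), and the kinesin KIF21A by 1.17 ± 0.22 (adjusted p = 0.0829). HES5, a Notch target that holds back neuronal differentiation, differed by 0.90 ± 0.18, and SEZ6L, a neuronal membrane protein, by 0.82 ± 0.16 (adjusted p = 0.0994 for each).

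**Figure D3:**
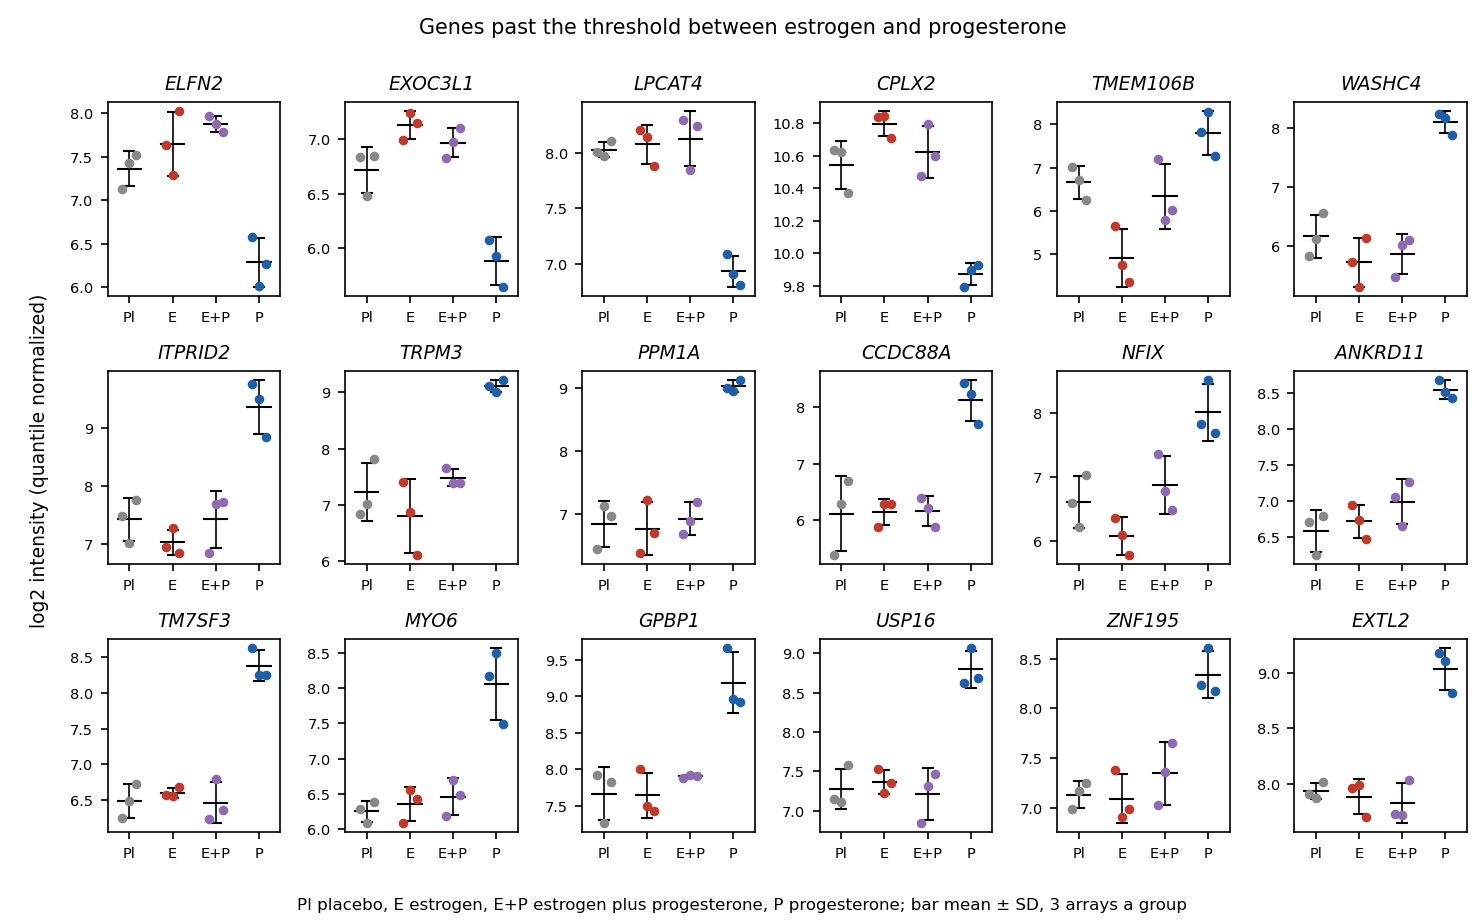
Log2 intensity of the 18 named genes with an adjusted p under 0.05, on the probe set with the lowest p, by group (Pl placebo, E estrogen, E+P estrogen plus progesterone, P progesterone); points are arrays, bars are means with SD, 3 arrays a group, and each panel has its own axis. The first 4 genes are higher under estrogen, the other 14 lower, and in all 18 the progesterone arrays lie outside the range of the other 9.

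Several of these genes are covered by more than 1 probe set, and the others often did not show the difference. Of the 19 called probe sets with a gene name, 6 were the brightest tested of their gene. For 15 of the 18 genes, 25 further probe sets were tested and did not pass. Of these, 17 had the direction of the called probe set and 8 the opposite, and in 9 the groups did not overlap in the direction of the call. Their median difference was 0.20 toward the call, with a range from -0.28 to 1.61. The genes fell into different patterns. ELFN2 (0.59), CPLX2 (0.76), LPCAT4 (0.50), TM7SF3 (-0.87) and TRPM3 (-0.85) each had a further probe set whose groups lay apart in the same direction. USP16 had further values of -1.61, -0.64 and 0.23, and GPBP1 of -1.13, -0.23 and -0.20. The values of -1.61 and -1.13 come from probe sets that share a design number with the called one, so they may not be independent readings. In contrast, the other probe sets of PPM1A were at -0.16, -0.08 and -0.06, those of CCDC88A at 0.28, 0.23 and 0.20, and those of MYO6 and EXTL2 at 0.08 and 0.14. For ANKRD11 the other probe set tested was at 0.27, with estrogen above progesterone on all arrays, while a pair of probe sets too dim to test gave differences of means of -2.14 and -3.35 without overlap. For TMEM106B the others were at -1.06, with overlap, and at 0.03. Those of WASHC4 that did not pass were at -1.34, without overlap, and at -0.10, with overlap. ITPRID2 had another at -0.50, with overlap. Which transcript forms each probe set reads was not analysed here.

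The calls differed in how far they rested on single arrays. On their called probe sets, WASHC4, PPM1A, ANKRD11 and TM7SF3 passed in each of the 12 fits that left 1 array out, and ITPRID2 in 10. The other 13 genes passed in 2 to 8. The brightest probe sets of WASHC4, PPM1A, ANKRD11, TM7SF3 and ITPRID2 were not the called ones. With all arrays these were at -0.10, -0.06, 0.27, -0.87 and -0.50, and none passed. Without progesterone array 2, 14 of the 18 genes no longer passed (adjusted p from 0.0972 to 0.182). The number was 14 without estrogen array 3 (0.0557 to 0.167), 12 without estrogen array 2 (0.0702 to 0.223) and 11 without progesterone array 3 (0.0539 to 0.101). Without progesterone array 1 and without the third array of estrogen plus progesterone 9 were lost (0.0543 to 0.087 and 0.0501 to 0.0781). Estrogen array 1 and the second array of estrogen plus progesterone cost 7 each (0.0502 to 0.112 and 0.0553 to 0.0841), the second placebo array 6 (0.0502 to 0.0814), the third placebo array and the first of estrogen plus progesterone 3 each (0.0516 to 0.0656 and 0.0531 to 0.0594), and the first placebo array 0. In a fit of the 6 arrays alone, WASHC4, PPM1A, ANKRD11 and TM7SF3 (adjusted p = 0.0241 for each), ITPRID2 (0.0371) and CCDC88A (0.043) passed. All 18 kept their direction in each of these fits.

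No gene of the serotonin pathway passed, though most were higher under estrogen. SLC18A2, the vesicular monoamine transporter, read 10.22, 10.41 and 10.86 under estrogen and 10.03, 9.77 and 9.34 under progesterone. The groups lay apart, and the difference of 0.78 ± 0.22 did not pass (adjusted p = 0.282, interval 0.29 to 1.27). TPH2, the enzyme that sets the rate at which neurons make serotonin, read 7.22, 7.14 and 7.39 under estrogen and 7.74, 6.99 and 4.66 under progesterone. Progesterone array 3 alone was low, progesterone array 1 was above all estrogen arrays, and the difference of 0.78 ± 0.65 had an interval from -0.64 to 2.21. GCH1, which makes the cofactor of TPH2, read 8.15, 8.73 and 8.96 against 8.17, 8.0 and 7.91 (0.59 ± 0.25, adjusted p = 0.494). MAOA, which breaks serotonin down, read 9.70, 9.97 and 10.34 against 9.82, 9.30 and 9.66 (0.41 ± 0.20, adjusted p = 0.554). In both genes the groups overlapped through estrogen array 1.

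Transcription factors of serotonin neurons did not pass either. FEV, which keeps these cells serotonergic, read 9.54, 9.50 and 9.80 under estrogen and 8.85, 9.44 and 9.15 under progesterone, without overlap (0.47 ± 0.26, adjusted p = 0.6). GATA2 and GATA3, which act earlier in their development, differed by 0.02 ± 0.24 and 0.11 ± 0.15. The autoreceptor gene HTR1B differed by 0.10 ± 0.26, with an interval from -0.46 to 0.66, and HTR1A was too dim to be tested. Across the list of serotonin synthesis, transport and breakdown, 7 of 10 genes tested were higher under estrogen with a median of 0.38, against 55.4% of all 9305 named genes (each on its brightest probe set) and a median of 0.03. Median alignment moved the median of all named genes to 0.17, while the deposited scaling kept it at 0.03. List medians are therefore also given as distances from that of all named genes, first as quantile normalized and then as under both other scalings, which give the same distance. For the serotonin list these were 0.35 and 0.38. Its median on each array, with genes centred on their 12-array means, was -0.070, 0.20 and 0.33 under estrogen. Under progesterone it was -0.056, -0.24 and -0.25, so the groups overlapped. The list of serotonin neuron identity was higher in 6 of 7 with a median of 0.06 (0.03 and -0.07 from all genes). In 1 of the 10 genes of the synthesis, transport and breakdown list, SLC18A2, all estrogen arrays lay above all progesterone arrays. Over all named genes this held in 8.79%, and the reverse in 5.46%, while 5.62% were higher and 3.49% lower at an unadjusted p under 0.05. These shares are the background for every list that follows. List counts and medians here use the brightest probe set of each gene, whereas a list member named with a difference is shown on its probe set with the lowest p.

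Markers of noradrenergic neurons, which also use SLC18A2, MAOA and GCH1, were higher under estrogen as well, without passing. DBH, which makes noradrenaline, read 6.61, 7.58 and 8.10 under estrogen and 7.20, 5.55 and 5.87 under progesterone (1.22 ± 0.65, adjusted p = 0.58). PHOX2A, a transcription factor of these cells, differed by 0.47 ± 0.38, and SLC6A2, their transporter, by 0.89 in group means on a probe set too dim to test. In all 3 the arrays overlapped, and the part of these cells in the values of the shared genes was not tested.

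Stress peptide genes gave mixed values. CRHR1, the receptor of corticotropin-releasing hormone, read 7.97, 7.94 and 7.92 under estrogen and 7.46, 6.15 and 7.24 under progesterone (0.99 ± 0.28, adjusted p = 0.284). Its estrogen arrays were nearly equal and lay above all progesterone arrays. CRH itself differed by -0.06 ± 0.18 (interval -0.45 to 0.34). Urocortin, UCN, read 7.69, 7.57 and 7.27 against 7.38, 9.10 and 7.54, with progesterone array 2 alone high (-0.50 ± 0.38). CARTPT, a feeding-related neuropeptide precursor, was also highest there, with 9.72, 12.05 and 9.04 under progesterone and 8.31, 7.93 and 8.46 under estrogen (-2.04 ± 0.72, adjusted p = 0.404).

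**Figure D4:**
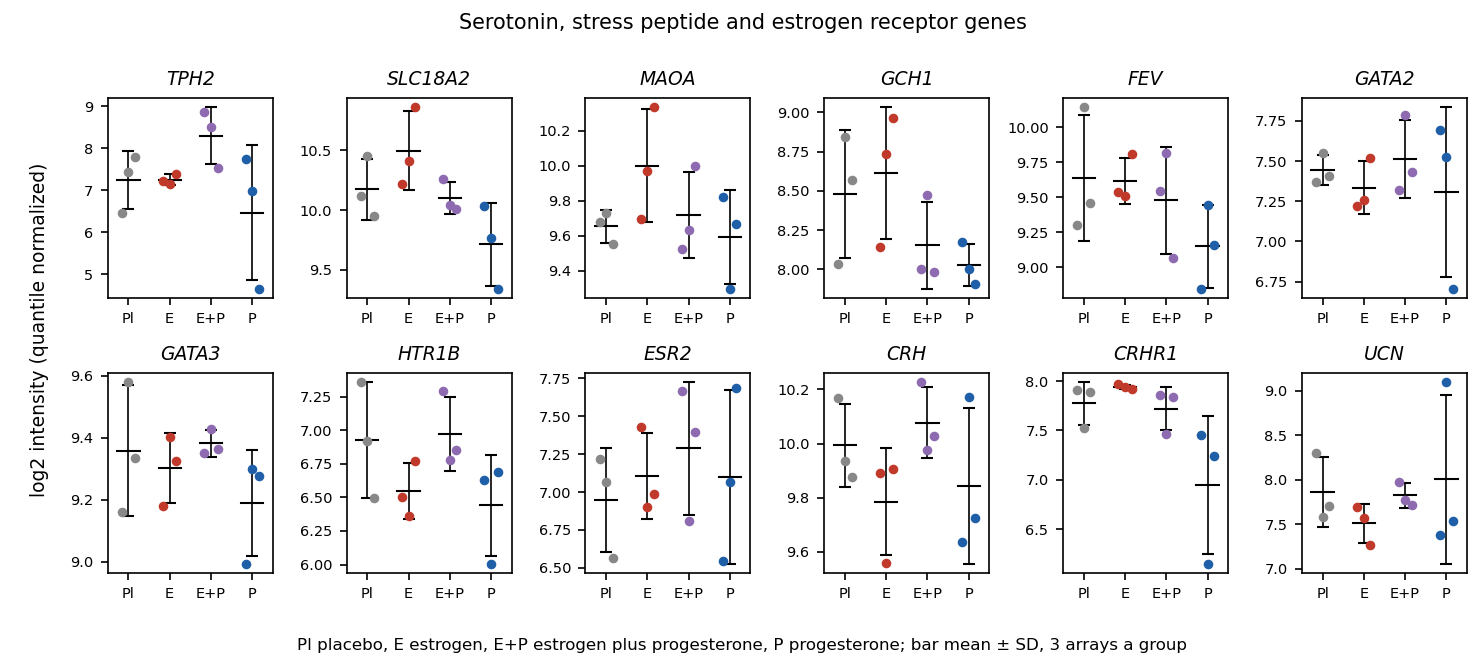
Log2 intensity of 12 genes of serotonin neurons, stress peptides and estrogen reception on their brightest probe set, by group (Pl placebo, E estrogen, E+P estrogen plus progesterone, P progesterone); points are arrays, bars are means with SD, 3 arrays a group, and each panel has its own axis. SLC18A2, FEV and CRHR1 show all estrogen arrays above all progesterone arrays, and none of the 12 passed the threshold.

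Receptors of the hormones gave little contrast where they could be measured. ESR2 read 7.43, 6.90 and 6.99 under estrogen and 6.55, 7.06 and 7.69 under progesterone (0.01 ± 0.31, interval -0.67 to 0.69). The glucocorticoid receptor NR3C1 differed by 0.13 ± 0.18 (interval -0.26 to 0.51). ESR1, PGR and the steroid-responsive chaperone FKBP5 were under the intensity needed for a test. Membrane receptors lay on either side, with the progestin receptor PAQR7 at 0.54 ± 0.25, the estrogen receptor GPER1 at -0.45 ± 0.20 and PGRMC2 at -0.47 ± 0.19 (adjusted p = 0.457 to 0.514).

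Among coregulators, 12 of 17 were higher under estrogen, with a median of 0.18 (0.15 and 0.16 from all genes). In 1 all estrogen arrays lay above and in 1 below, and at an unadjusted p under 0.05 there were 0 higher and 1 lower on the brightest probe sets. The members named next are shown on the probe set with the lowest p. UBE3A, a ubiquitin ligase and receptor coactivator, read 7.88, 7.90 and 7.88 under estrogen and 7.24, 6.95 and 7.0 under progesterone (0.82 ± 0.20, adjusted p = 0.191). PPARGC1B read 6.92, 7.21 and 7.47 against 6.54, 6.36 and 5.51 (1.06 ± 0.27, adjusted p = 0.206), and MED1, the Mediator subunit that contacts nuclear receptors, differed by 0.63 ± 0.17. NCOA3, a p160 coactivator, had the opposite direction at -0.52 ± 0.18. None of the 52 probe sets of the list passed.

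Genes known to respond to estrogen in other tissues were higher in 11 of 15 (median 0.10, and 0.07 and 0.05 from all genes). Their largest value was BCL2, a survival factor, at 8.12, 7.07 and 7.69 under estrogen and 5.22, 5.17 and 7.02 under progesterone (1.82 ± 0.67, adjusted p = 0.421). GREB1, a classical estrogen target, differed by 0.06 ± 0.20 (interval -0.38 to 0.50). Genes known to respond to progestins or corticosteroids were split 8 to 8, with a median of -0.01 (-0.04 and -0.02 from all genes). Among them MT1X, a metallothionein, differed by -0.99 ± 0.27 (adjusted p = 0.249), with every estrogen array below every progesterone array. MT1X belongs to a family of near-identical genes, so its probe set may read relatives.

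In synaptic adhesion and organizers, 25 of 37 genes were higher under estrogen, against 55.4% of all named genes, with a median of 0.27 (0.24 and 0.26 from all genes). In 7 of the 37 all estrogen arrays lay above all progesterone arrays and in 3 below, against 8.79% and 5.46% of all named genes. Over all 66 probe sets of the list, 8 lay above and 8 below, against 1191 and 976 of 15020. The list medians by array were 0.15, 0.21 and 0.02 under estrogen and 0.13, -0.35 and -0.10 under progesterone, so the groups overlapped. ELFN2 was the member that passed. PTPRS, a presynaptic receptor phosphatase, read 9.0, 8.13 and 8.29 under estrogen and 7.97, 6.38 and 5.85 under progesterone (1.74 ± 0.45, adjusted p = 0.223), and LRRTM1, a postsynaptic partner of neurexins, differed by 0.79 ± 0.24. The adhesion gene CADM3 went the other way, at -0.83 ± 0.25. CNTNAP2, a neurexin family member, differed by 0.74 ± 0.41 with overlapping arrays.

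In synaptic vesicle release 12 of 17 genes were higher (median 0.14, and 0.10 and 0.12 from all genes), with 3 above without overlap and 0 below. The list medians by array overlapped, with progesterone array 1 at 0.0061 and estrogen array 1 at -9.2e-05. CPLX2 passed, while SV2B, a vesicle glycoprotein, at 0.58 ± 0.18 and DNM1, the dynamin of vesicle recovery, at 0.51 ± 0.19 did not. General neuronal genes were higher in 11 of 15 (median 0.14, and 0.10 and 0.17 from all genes). Their list medians by array were -0.03, 0.12 and 0.11 under estrogen and 0.15, -0.11 and -0.26 under progesterone, so progesterone array 1 was highest. Of 3 neuron markers (SYT1, STMN2 and ENO2) 1 was higher and 2 lower. Their summed intensity was 8929, 10311 and 10607 under estrogen and 10155, 8424 and 9094 under progesterone. Glutamate receptor genes were higher in 13 of 18 with a median of 0.06 (0.03 and 0.06 from all genes). GRID1, a delta glutamate receptor, read 7.22, 6.99 and 6.92 under estrogen and 6.46, 3.63 and 3.87 under progesterone (2.39 ± 0.55, adjusted p = 0.17), so progesterone arrays 2 and 3 made the gap. For GABA the split was 7 to 6, and the receptor subunit GABRA2 was at -0.98 ± 0.26, reading 7.91, 7.41 and 7.89 against 9.28, 8.45 and 8.43.

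Potassium channels were higher under estrogen in 23 of 41 genes (56.1%, against 55.4% of all named genes), with a median of 0.07 (0.04 and 0.01 from all genes). Without overlap, 8 were above and 3 below, against 8.79% and 5.46% of all named genes. KCNC4, a voltage-gated potassium channel, read 9.67, 9.54 and 9.46 under estrogen and 8.90, 8.55 and 8.98 under progesterone (0.75 ± 0.16, adjusted p = 0.127). KCNJ6, a G protein-gated channel through which serotonin autoreceptors act, differed by 0.46 ± 0.16. Of 43 sodium, calcium, TRP and chloride channel genes 26 were higher (median 0.09, and 0.06 and 0.03 from all genes), and TRPM3 was the member that passed. The calcium channel subunits CACNB1 and CACNA1I were at 0.73 ± 0.17 and 0.72 ± 0.18, without passing.

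Signalling enzymes were divided. Kinases of second messengers and the MAP kinases were higher under estrogen in 37 of 54 genes (median 0.13, and 0.09 and 0.08 from all genes), with 5 above and 5 below without overlap. AKT1 read 10.71, 10.68 and 10.56 under estrogen and 10.13, 9.83 and 10.11 under progesterone (0.63 ± 0.15, adjusted p = 0.181). CAMK2B, the beta chain of calcium/calmodulin kinase II, differed by 0.79 ± 0.19 and the neuronal JNK gene MAPK10 by -0.45 ± 0.14. Serine/threonine phosphatases were higher in 21 of 50, with a median of -0.03 (-0.06 and -0.02 from all genes). Besides PPM1A, PPP2R2C, a brain subunit of protein phosphatase 2A, read 8.37, 7.37 and 7.73 against 10.25, 9.75 and 9.74 (-2.09 ± 0.36, adjusted p = 0.0588).

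Trafficking lists held called genes of both directions. Of 68 Rab, exocyst and TBC genes, 42 were higher under estrogen (median 0.06, and 0.03 and 0.04 from all genes), with 9 above and 7 below. EXOC3L1 passed, and RAB29, a Rab of the Golgi and lysosome that binds LRRK2, read 7.68, 7.99 and 7.95 against 8.74, 8.55 and 8.73 (-0.80 ± 0.16, adjusted p = 0.091). The endosome, WASH and retromer list was higher in 31 of 53 with a median of 0.02 that lay below all genes by quantile normalization (-0.01) and above them under the other scalings (0.02). Lysosomal and vacuolar ATPase genes were higher in 9 of 27, with a median of -0.13 (-0.16 and -0.12 from all genes). HEXA, a lysosomal hexosaminidase, was at -0.65 ± 0.21 beside TMEM106B. Motor and microtubule genes were split 36 to 27, with 11 above and 8 below without overlap, and the dynein chain DYNC1LI2 read 9.09, 9.47 and 9.63 against 10.22, 10.36 and 10.28 (-0.89 ± 0.18, adjusted p = 0.113).

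Nuclear, proteasome, mitochondrial and ribosomal lists showed no common direction. Splicing factors were split 43 to 44 (median -0.01, and -0.05 and -0.0027 from all genes), with 7 above and 8 below. Proteins of nuclear speckles had large differences that did not pass. SON read 8.14, 8.43 and 8.18 under estrogen and 10.35, 9.84 and 9.82 under progesterone (-1.76 ± 0.32, adjusted p = 0.0719), and SRRM2 differed by -2.01 ± 0.43 (adjusted p = 0.127). Chromatin genes were higher in 50 of 88 (median 0.07, and 0.04 and 0.02 from all genes), and KMT2A, a histone H3 methyltransferase, was at -1.44 ± 0.27 (adjusted p = 0.0829) beside the called ANKRD11. Proteasome genes were higher in 18 of 30 with 7 above and 2 below (median 0.06, and 0.02 and 0.10 from all genes). Oxidative phosphorylation genes were higher in 31 of 56 (median 0.03, from below all genes by -0.00061 to above them by 0.05) and cytosolic ribosomal proteins in 16 of 35 (median -0.01, from -0.04 below to 0.04 above). None of the probe sets of the splicing, proteasome, oxidative phosphorylation and cytosolic ribosomal lists passed. Housekeeping and array control genes were higher under estrogen in 6 of 7 (median 0.21, and 0.18 and 0.24 from all genes). Without overlap, 0 of them lay above and 1 below, and none of their 10 probe sets passed. Their list medians by array were 0.07, 0.13 and -0.02 under estrogen and 0.08, -0.18 and -0.29 under progesterone, so the groups overlapped.

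Cholesterol synthesis and transport had 19 of 22 genes higher under estrogen (86.4%, against 55.4% of all named genes), with a median of 0.13 (0.10 and 0.14 from all genes), and 1 above and 1 below without overlap. At an unadjusted limma p under 0.05 there were 0 higher and 1 lower, and the largest difference was 0.35. The list medians by array overlapped, at -0.01, 0.13 and -0.0417 under estrogen and -0.0405, -0.08 and -0.13 under progesterone. The next gene is shown on another probe set than its brightest. SREBF2, the transcription factor that drives the pathway, read 9.17, 9.08 and 8.76 under estrogen and 8.73, 8.16 and 8.20 under progesterone (0.64 ± 0.22, adjusted p = 0.383). In phospholipid remodelling 17 of 28 were higher (60.7%), with a median of 0.04 near that of all genes (0.01 and 0.04 from it), and 5 were above and 0 below without overlap. CEPT1, which makes phosphatidylcholine and phosphatidylethanolamine, was at 0.66 ± 0.18 beside the called LPCAT4.

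No marker list of other cells held a gene that passed. Microglial and complement genes were higher under estrogen in 5 of 17, with a median of -0.12 (-0.15 and -0.14 from all genes). CX3CR1, the fractalkine receptor of microglia, read 7.69, 7.23 and 7.22 under estrogen and 7.96, 7.93 and 7.79 under progesterone (-0.51 ± 0.17, adjusted p = 0.379). Oligodendrocyte genes were higher in 4 of 13 (median -0.13, and -0.17 and -0.10 from all genes), and their median was 0.06 without progesterone array 2. Astrocyte genes were higher in 10 of 16 (median 0.02, from below all genes by -0.01 to above them by 0.10), with 0 above and 0 below without overlap. The summed markers of microglia, oligodendrocytes and astrocytes overlapped between the groups. Hemoglobin HBB read 6.51, 7.50 and 6.98 against 8.17, 8.40 and 8.42 (-1.33 ± 0.55, adjusted p = 0.469), and the summed level of 2 blood markers was 226 to 317 under estrogen and 402 to 589 under progesterone.

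Cilium and ependymal genes were higher under estrogen in 24 of 32 (median 0.23, and 0.20 and 0.15 from all genes). The list medians by array were 0.03, 0.10 and -0.03 under estrogen and -0.20, -0.35 and 0.15 under progesterone. Progesterone array 3 thus lay above every estrogen array. FOXJ1, the master factor of motile cilia, differed by 0.69 ± 0.36 with overlapping arrays. Cerebellar markers summed to 952, 2504 and 988 under estrogen and 1072, 720 and 1050 under progesterone. Estrogen array 2 alone was high, and without it the median of the 6 cerebellar genes went from 0.35 to 0.04. The part of these cell markers in the differences of the synaptic and neuronal lists was not tested.

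**Figure D5:**
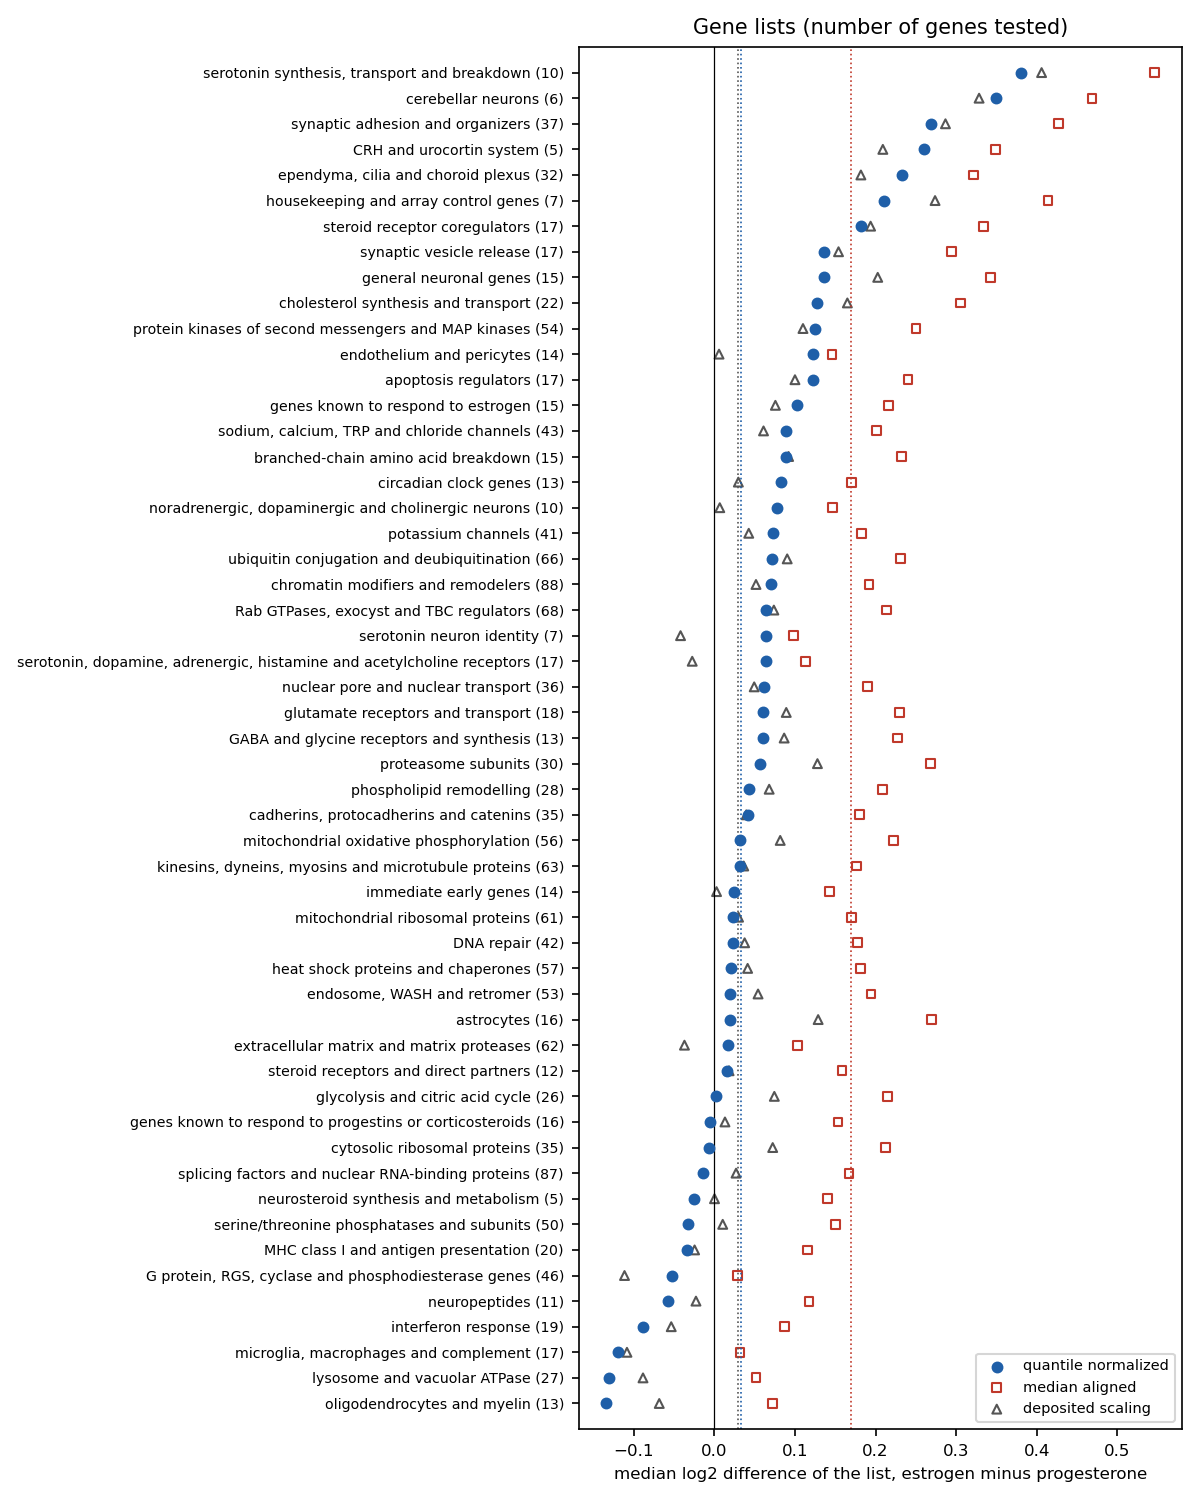
Median log2 difference (estrogen minus progesterone) of each gene list with at least 5 genes tested, under 3 scalings (filled circles quantile normalized, squares median aligned, triangles deposited scaling); dotted lines are the median of all named genes under each scaling, at 0.03, 0.17 and 0.03. The list of serotonin synthesis, transport and breakdown lies at the top at 0.38, and the list of oligodendrocytes and myelin at the bottom at -0.13. Median alignment shifts all lists to the right together with the median of all genes.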

How the data were processed

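The deposited values were linear intensity of each probe set on an Affymetrix rhesus chip, from total RNA labelled with biotin per the labels' protocols. The authors had brought each array to a common level, since the mean after trimming 2% at each end was 200.01 on every array. The sources used here do not name their software. After removal of 99 controls, 52766 probe sets were floored at the 5th percentile (intensity 4.99), log2 transformed and quantile normalized. The 26383 at or above the median of mean log2 (6.31, intensity 79.5) were tested, 15020 of them with 1 gene symbol. The mean was over all 12 arrays, so a probe set high in 1 group could enter the test through that group. This held for called probe sets of TMEM106B, WASHC4 and CCDC88A and for some without a name. limma 3.58.1 in R 4.3.3 fitted all 12 arrays with a mean for each group (degrees of freedom: 8 residual, 3.54 prior), two-sided, with Benjamini-Hochberg adjustment and a threshold of 0.05. Intervals are 95%. Tests of single genes rest on limma, since an exact permutation test of 3 against 3 cannot go below p = 0.1. The steps were tested on simulated data.

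Named genes were the 15 largest differences in each direction among genes that passed without overlap, filled by the lowest p, a set of serotonin, stress and steroid genes on their brightest probe set, and up to 4 members of each of 54 lists (those that passed, otherwise the lowest p). List counts cover 9305 genes. The groups, lists and rules were chosen with earlier results of these data known. Replicate numbers did not pair the estrogen with the progesterone arrays, and pairing with the other groups was not checked. Figures used matplotlib 3.10.9 in Python 3.11.15.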

Additional observations from a re-analysis of the deposited data

How the results depend on the processing

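The count of 35 depended on the settings. It was 23 with median alignment, which moved the median difference of all probe sets tested from 0.0095 to 0.13 (-0.0079 with the deposited scaling, 45 called). It was 21 without the intensity filter, 0 of them higher under estrogen, and 15 with a filter at the 75th percentile, under which 8 of the 35 were still tested and all 8 passed. The 6 arrays alone gave 23, an intensity trend 54, array weights 56, and the fit without the first arrays of placebo, estrogen and estrogen plus progesterone 62. When each gene was kept by its brightest probe set alone it was 5, of which 3 were higher under estrogen. A floor at the 25th percentile gave 38. Leaving out 1 array gave 10 to 55: 10 without estrogen array 3, 16 without estrogen array 2, 11 and 16 without progesterone arrays 2 and 3, 20 and 17 without arrays 2 and 3 of estrogen plus progesterone, and 55 without the first placebo array. Without progesterone array 1 the count stayed at 35, with 14 higher and 21 lower under estrogen. Same-numbered arrays of estrogen and progesterone correlated by -0.16, -0.11 and 0.03 in their deviations from the group means, so the numbers were not taken as pairs, and the fit with the replicate block called 19, all lower under estrogen. The cause of these shifts was not tested, beyond the fewer probe sets or arrays that a setting leaves. No named gene changed direction in a call. With 3 arrays a group the median width of an interval to either side was 0.49 on the log2 scale, against a median absolute difference of 0.19.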

Other observations

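Genes with more than 1 probe set at an unadjusted p under 0.01 in the same direction were listed after the values were seen, and carry no adjusted test beyond the one given above. There were 4 higher under estrogen (ELFN2, KCNC4, TRIB2 and TUBB3) and 16 lower. The share of all genes that could meet this rule in each direction was not counted, so these counts are no result on direction. At an unadjusted limma p under 0.05, 5.23% of all probe sets tested were higher under estrogen and 4.61% lower. KCNC4 had all 3 of its probe sets higher, at 0.75, 0.90 and 0.54. TUBB3, the neuronal beta tubulin, had 0.93, 0.92, 0.37 and -0.11. The values of 0.93 and 0.92 come from probe sets that share a design number, so they may not be independent readings. In both, estrogen array 1 lay below progesterone array 1 (10.33 against 10.44, and 10.51 against 10.62), so the groups overlapped. Among those lower under estrogen, KPNB1, the importin beta of nuclear import, had both of its probe sets at -0.95 and -1.12. PPP2R2C had -2.09, -2.74, -0.13 and 0.50. EXOC5, an exocyst subunit, had -1.01, -0.62, -0.41, -0.12 and 0.06, in the direction opposite to EXOC3L1. TTC3, a ubiquitin ligase that acts on AKT, had -1.11, -1.10, -0.39, -0.21 and -0.02. Its values of -1.11 and -1.10 also come from probe sets with a shared design number.

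Some large differences came mostly from progesterone arrays 2 and 3, and the genes named here were chosen after their values were seen. LRRC4B, a postsynaptic adhesion protein, read 8.72, 8.77 and 8.82 under estrogen and 7.90, 4.52 and 4.53 under progesterone (3.12 ± 1.03, adjusted p = 0.37, limma). CNTNAP1, the contactin-associated protein of axons next to the node of Ranvier, read 7.60, 8.08 and 7.38 against 7.30, 4.30 and 4.39 (2.36 ± 0.88, adjusted p = 0.43). Progesterone array 1 lay near the estrogen arrays in CNTNAP1. In LRRC4B it lay below all of them, at 7.90, though far above progesterone arrays 2 and 3.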
